A study of Mus musculus with 4 samples.

Results

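The genes described here carry the symbols of the factors that start protein synthesis, and some encode proteins with other roles. They are called initiation factor genes below by symbol. The rule takes the rows whose symbol begins with Eif and a digit from 1 to 6, without the eIF2α kinase symbols (Eif2ak) and without Eif2s3y. It uses names and no values, but the family itself was picked with earlier results of these data known. This gave 53 of the 23284 gene symbols in the tables. Of these, 48 carry a current symbol and 5 an older one: Eif3j is now Eif3j1, and Eif2c1 to Eif2c4 are now Ago1 to Ago4. The last 4 encode Argonaute proteins, which carry small RNAs in gene silencing and are not initiation factors, so counts are also given without them. Eif4e1b was listed at 0 in every library and was not tested. The other 52 had more than 1 FPKM in every library, so none passed the filter on low values through one group only.

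RNA was sequenced from EGFP+ cells recovered from the bone marrow of single recipient mice 24 h after a transplant. The donor cells were 100000 LSK cells per recipient, the Lin- Sca1+ c-Kit+ part of the marrow in which stem and multipotent progenitor cells are found. Their donors carry EGFP driven by the CAG promoter, which is active in all cell types. EGFP is thus meant to mark donor origin and not a cell type. Whether every EGFP+ cell came from the donor was not tested. Control recipients were untreated wild-type mice, and 5-FU recipients were wild-type mice given 5-fluorouracil intravenously at 200 mg/kg 2 days before the transplant, so only the host and not the donor cells had been injected with the drug. Each group had 2 recipients and so 2 libraries, called control 1 and 2 and 5-FU 1 and 2 below. The sources used here do not give strain, age or sex, nor whether donor cells were pooled.

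Initiation is the step at which most control of protein synthesis is exerted. The trimer eIF2 brings the initiator tRNA to the small ribosomal subunit with GTP, eIF2B recharges eIF2 with GTP, and eIF1, eIF1A and eIF5 govern scanning and the choice of start codon. The large scaffold eIF3 holds the small subunit, and eIF4F, made of the cap-binding protein eIF4E, the helicase eIF4A and the scaffold eIF4G, recruits the mRNA. The 4E-BP proteins block eIF4E until mTOR phosphorylates them. Blood stem cells are known for a low rate of protein synthesis, which rises as progenitors divide.

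A set of initiation factor genes rose in EGFP+ cells from 5-FU recipients and none fell, with Eif5a, Eif3b, Eif1ad, Eif1ax, Eif3g and Eif4e at the largest fold changes in the fit to all 4 libraries. At an adjusted p under 0.05 (limma-trend on log2(FPKM + 1), Benjamini-Hochberg over all 11496 tested genes) 17 of the 52 tested members rose and 0 fell, which leaves 35. That is 32.7% of the members, beside 8.23% of all tested genes that rose and 4.67% that fell. Without the Argonaute genes the count was 17 of 48. The 17 include Eif5a, Eif1ad, Eif4a3 and Eif6, whose proteins are described below with other roles than starting synthesis. At an unadjusted p under 0.05 there were 30 higher and 3 lower members, beside 16.9% and 14.4% of all tested genes. The median log2 fold change of the members was 0.64, beside −0.01 over all tested genes, and 44 of 52 values (84.6%) were positive, beside 49.2% of all tested genes. The 17 ratios of mean FPKM ran from 1.73 (Eif6) to 2.81 (Eif5a). Without control 1 or control 2 there were 0 calls in the members, and 0.765% or 0.8% of all tested genes were called higher and 0.331% or 0.374% lower. Without 5-FU 1 the members had 31 higher and 2 lower calls, beside 18.5% and 16.3% of all tested genes. Without 5-FU 2 they had 25 and 2, beside 9.08% and 6.65%.

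Some of the 35 members that did not pass did pass in a fit without a 5-FU library, beside the shares of all tested genes given above for these fits. In such a fit the lone 5-FU library is assumed to vary like the controls. Eif2b3, Eif2b5, Eif2s2, Eif3c, Eif4b and Eif4g2 passed as higher without either one. Eif2b4, Eif2s3x, Eif3e, Eif3h, Eif3j, Eif3k, Eif3m and Eif4ebp1 passed as higher without 5-FU 1 only, and Eif2d and Eif4g1 without 5-FU 2 only. Eif2c3 and Eif4e3 passed as lower without 5-FU 1 only, and Eif2c4 and Eif4g3 without 5-FU 2 only.

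**Figure D1:**
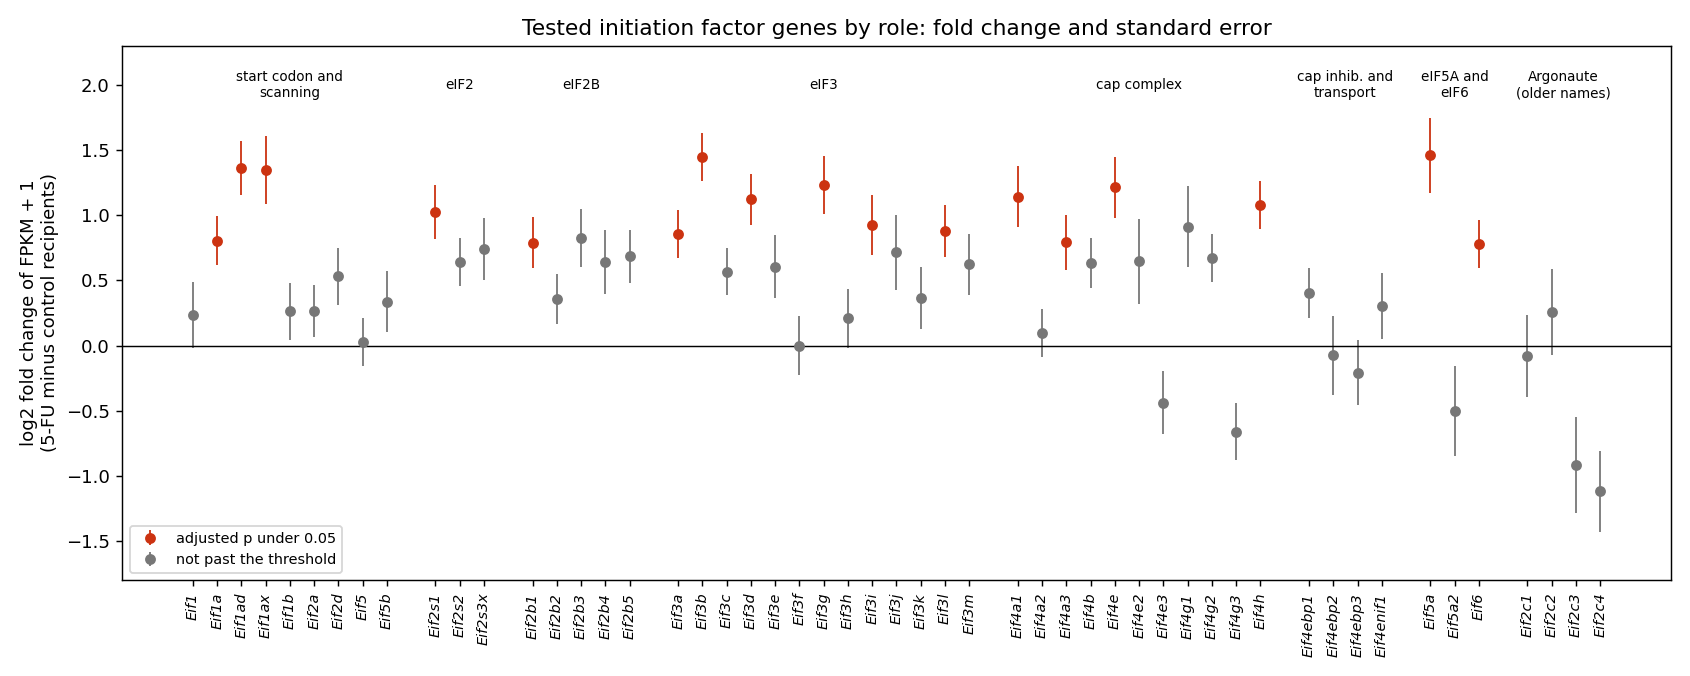
Log2 fold change of FPKM + 1 (5-FU minus control recipients, vertical axis) for the 52 tested members, grouped by role. Points are limma estimates, bars their standard errors, and red points the 17 members past the threshold; these lie between 0.78 and 1.46, and the members below 0 did not pass.

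Without any model of the spread, both 5-FU libraries lay above both control libraries for 37 of the 52 tested members (71.2%), beside 31.4% of all tested genes. Both lay below for 6 members, beside 30.7% of all tested genes. Of the 35 members that did not pass, 20 had both 5-FU libraries above both control libraries. The members summed to 4754 and 4499.5 FPKM in control 1 and 2 and to 6852 and 8912 in 5-FU 1 and 2. As a share of all FPKM this was 0.699% and 0.663% against 1.01% and 1.17%. The 5-FU libraries were not alike: 39 of 52 members (75.0%) were higher in 5-FU 2 than in 5-FU 1, beside 51.9% of all tested genes, and so were 15 of the 17 that rose. In the control pair 22 of 52 were higher in control 2.

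**Figure D2:**
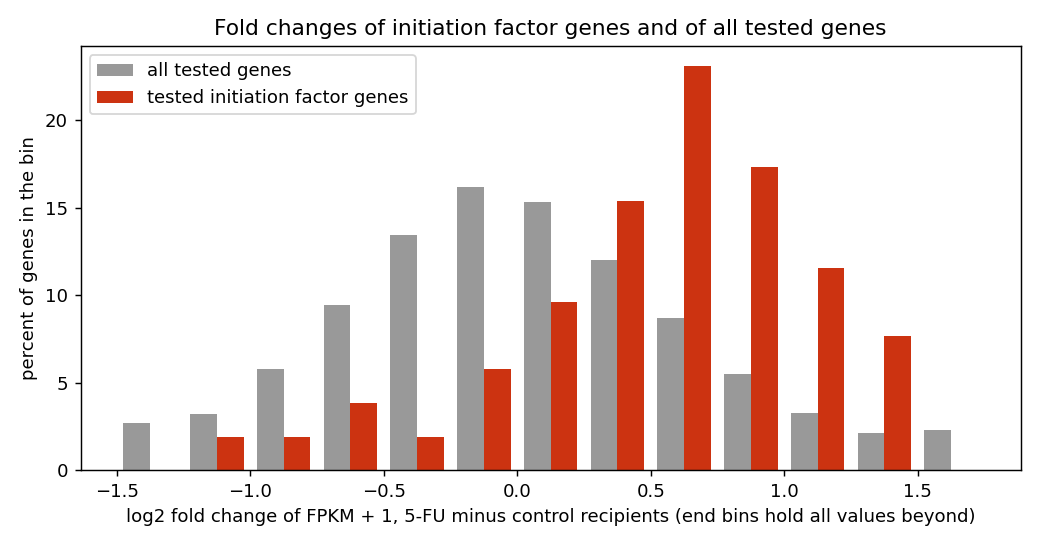
Percent of genes (vertical axis) in bins of log2 fold change of FPKM + 1 (horizontal axis, 5-FU minus control recipients), for all 11496 tested genes in grey and the 52 tested members in red. The bin from 0.50 to 0.75 holds the most members, 12, while the 2 fullest bins of all genes lie on either side of 0.

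The libraries differ in more than these genes. The labelled cell type was met by its markers in each library: 10 stem and progenitor genes, Kit, Cd34 and Flt3 among them, summed to 402 to 608 FPKM, and of these Ly6a rose, none fell and 9 did not pass. Macrophage markers were abundant beside them, and whether that RNA came from donor cells was not tested. All 12 were detected in every library. They summed to 20808 and 23965 FPKM in control 1 and 2 and to 16512 and 8499.7 in 5-FU 1 and 2. Of the 12, 3 fell and none rose. Here and for the markers below, the share of all tested genes that fell was 4.67%. Both 5-FU libraries lay below both control libraries for 10 of the 12 and above for Marco, beside 30.7% and 31.4% of all tested genes. Of 7 neutrophil markers 5 fell, and their sum went from 9286 and more in controls to at most 3263 after 5-FU. Of 7 tested erythroid markers 6 fell, with sums of 1259 and 1772 FPKM against 70.0 and 107, and the erythroid enzyme gene Alas2 stood at 0 in 5-FU 1. Of 6 tested B cell markers 4 fell, with sums of 347 and 358 against 189 and 158, and Igll1 stood at 0 after 5-FU. The part of these shifts in the values of the initiation factor genes was not tested. In such bulk samples fewer cells of a type and less RNA per cell cannot be told apart.

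The genomic sequence just before the start site is shown for 5 members, because genes that moved together can be read side by side there, next to members that did not pass. The windows are the 250 bases before the most upstream listed start, from RefSeq (GRCm38.p6), and were found for 41 of the 53 members. A listed start can lie downstream of the annotated gene start. The windows of Eif4g3 and Eif2c3 lie within the gene, that of Eif5a2 almost wholly so, and some others overlap it in part. Both strands were searched for the E-box CACGTG, which MYC with its partner MAX is known to bind and which reads the same on both strands, for the ETS core CCGGAAG, and for TGATGNAA, the core of the element that ATF4 is known to bind. No match of one pattern overlapped a match of another in the members. Each stretch below is 5′ to 3′ on the gene's strand, with the match in capitals, and holds no exon annotated in GENCODE M21. The ETS core appears on these strands as its reverse complement. Eif1ax lies at chrX:159371928-159372012 (plus strand), Eif3d at chr15:77970848-77970934 (minus), Eif4a1 at chr11:69672567-69672652 (minus), Eif3f at chr7:108934307-108934392 (plus) and Eif4g1 at chr16:20672633-20672718 (plus). Eif1ax, Eif3d and Eif4a1 rose, and Eif3f and Eif4g1 did not pass. Stretches of Eif4ebp2 (ETS core) and Eif3k (E-box), neither of which passed, also qualified and are not shown. So the E-box and the ETS core each stood before members that rose and members that did not.
Eif1ax, ETS core: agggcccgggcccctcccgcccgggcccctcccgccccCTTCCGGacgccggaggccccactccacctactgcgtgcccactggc
Eif3d, ETS core: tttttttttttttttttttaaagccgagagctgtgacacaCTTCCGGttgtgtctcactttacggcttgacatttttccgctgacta
Eif4a1, E-box: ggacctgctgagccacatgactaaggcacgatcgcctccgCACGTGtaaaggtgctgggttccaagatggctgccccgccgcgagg
Eif3f, E-box: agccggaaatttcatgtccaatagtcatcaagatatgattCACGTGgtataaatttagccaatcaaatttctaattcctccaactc
Eif4g1, E-box: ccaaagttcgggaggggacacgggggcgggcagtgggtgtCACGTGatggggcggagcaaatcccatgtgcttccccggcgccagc

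An E-box stood in 7 of the 41 member windows (17.1%), beside 8.87% of the 8255 windows of tested genes and 6.04% of all 27025 windows. It was in 2 of 14 windows of members that rose and in 5 of 27 of those that did not pass. The ETS core stood in 11 of 41 (26.8%), beside 14.7% of tested genes and 7.07% of all windows, with 5 of 14 among members that rose and 6 of 27 among the others. The ATF4-type letters stood in 1 member window, that of Eif2s3x (2.44%), beside 1.91% of tested genes and 3.53% of all windows. The E-box and ETS core counts include Eif5a2, and the ETS core count Eif2c3, whose windows lie wholly or mostly within the gene. These matches are a description and were not tested.

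Among the start codon and scanning factors 3 of 9 rose, beside 8.23% of all tested genes, and 6 did not pass. The median log2 fold change of the 9 was 0.34. Eif1ad, which encodes a protein with an eIF1A-like domain that acts in small ribosomal subunit maturation, had 18.6 and 15.3 FPKM in control 1 and 2 and 43.4 and 46.7 in 5-FU 1 and 2. The groups were far apart relative to the spread in each, and the log2 fold change was 1.36 (SE 0.21, limma adjusted p = 0.014). Its exons share 428 bases with Banf1 on the opposite strand, and Banf1 went from 156 and 134 to 391 and 589 FPKM. The sources used here do not say whether counting used strand, so reads over those bases cannot be assigned with certainty.

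Eif1ax, the X-linked gene for eIF1A, which steadies the scanning small subunit, had 61.1 and 60.5 FPKM in controls and 121 and 203 in 5-FU recipients. Both 5-FU libraries were high, 5-FU 2 most of all, and the log2 fold change was 1.35 (SE 0.26, limma adjusted p = 0.021). Without 5-FU 2 it was 0.98. Eif1a, a second eIF1A gene, went from 32.0 and 35.5 to 61.0 and 58.4 FPKM, and rose by 0.80 on the log2 scale (SE 0.19, limma adjusted p = 0.035). The Eif1ax to Eif1a ratio of FPKM was 1.91 and 1.70 in controls and 1.98 and 3.48 in 5-FU recipients, so only 5-FU 2 stood apart.

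The other members of this role had small differences. Eif1, which guards start codon fidelity, was the most abundant of the role, with 946 and 794 FPKM in controls and 934 and 1112 in 5-FU recipients. The groups overlapped, and its fold change of 0.23 turned to −0.01 with quantile scaling. Eif1b, its close relative, had 71.4 and 85.7 against 81.0 and 109 FPKM, also overlapping. Eif5, the GTPase-activating protein for eIF2, had 127 and 126 FPKM in controls and 123 and 134 after 5-FU. Its difference of 0.03 (log2) turned to −0.17 with quantile scaling and −0.06 with TPM scaling. Eif5b, whose protein joins the large subunit, had a log2 fold change of 0.34, Eif2a of 0.27 and Eif2d of 0.53, and none of the 3 passed. Eif1 and Eif5 had the highest control FPKM of the role, and neither passed.

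All 3 subunit genes of eIF2 had both 5-FU libraries above both control libraries, beside 31.4% of all tested genes. Of the 3, 1 passed, beside 8.23% of all tested genes that rose. Eif2s1 encodes eIF2α, the subunit that stress kinases phosphorylate. Its values were 49.5 and 46.7 FPKM in controls and 86.2 and 113 after 5-FU, and its log2 fold change was 1.02 (SE 0.21, limma adjusted p = 0.023). Eif2s2, the β subunit, had 76.6 and 78.3 against 115 and 128 FPKM (limma adjusted p = 0.059). Eif2s3x, the X-linked γ subunit gene, had 22.7 and 23.8 against 32.6 and 48.0 FPKM (limma adjusted p = 0.079). Of the 75-base stretches of Eif2s3x transcripts 35.0% also occur in transcripts of another annotated gene, so its level is uncertain.

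For each of the 5 genes of the exchange factor eIF2B both 5-FU libraries lay above both control libraries, beside 31.4% of all tested genes. The median log2 fold change of the 5 was 0.68. Eif2b1, the α subunit, rose from 26.0 and 26.7 to 43.9 and 48.8 FPKM (log2 fold change 0.79, SE 0.19, limma adjusted p = 0.040). Eif2b3, the γ subunit, had a larger difference of 0.83, with 18.4 and 14.3 against 30.2 and 29.0 FPKM, and its limma adjusted p of 0.0503 did not pass. Eif2b5, which carries the catalytic domain, had 23.5 and 28.9 against 43.4 and 41.5 FPKM (log2 fold change 0.68) and did not pass. Eif2b4 had a difference of 0.64 and Eif2b2 one of 0.36. The subunits of the complex had control means of 16.2 to 32.8 FPKM, and Eif2b2, the most abundant, had the smallest difference.

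In eIF3, the largest initiation factor, 6 of 13 subunit genes rose, beside 8.23% of all tested genes, and 7 did not pass. The median log2 fold change of the 13 was 0.71. Both 5-FU libraries lay above both control libraries for 11 of the 13, beside 31.4% of all tested genes. Eif3b had the smallest p of all members. It had 60.8 and 68.0 FPKM in controls and 179 and 176 in 5-FU recipients, and the gap between groups was many times the spread within either (log2 fold change 1.45, SE 0.18, limma adjusted p = 0.0097). Eif3b lies at chr5:140419305-140443358 (GRCm38.p6, as all coordinates here) and encodes the subunit around which eIF3g and eIF3i assemble.

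Eif3g and Eif3i rose as well. Eif3g, whose RNA-binding protein contacts the mRNA, had 123 and 107 FPKM in controls and 231 and 318 after 5-FU (log2 fold change 1.24, SE 0.22, limma adjusted p = 0.018). Eif3i, a WD-repeat subunit, had 132 and 125 against 203 and 296 FPKM (0.93, SE 0.23, limma adjusted p = 0.041). So all 3 genes of the b, g and i module passed, a grouping picked out after the values were seen. Eif3d, a subunit with cap-binding activity on some mRNAs, had 61.1 and 58.6 against 119 and 145 FPKM (1.12, SE 0.19, limma adjusted p = 0.017). An annotated antisense gene shares 2151 exon bases with Eif3d, and their reads cannot be told apart without strand.

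Of the 8 subunits that form the structural core of eIF3 (a, c, e, f, h, k, l and m), Eif3a and Eif3l rose. Eif3a, the largest subunit, went from 35.9 and 35.5 to 63.3 and 67.7 FPKM (log2 fold change 0.86) and Eif3l from 99.6 and 85.5 to 156 and 186 (0.88). Eif3c had close replicates, at 85.7 and 84.9 against 129 and 124 FPKM, but its difference of 0.56 did not pass (limma adjusted p = 0.076). Eif3e had 159 and 121 FPKM in controls and 178 and 251 in 5-FU recipients, and Eif3m had 117 and 112 against 144 and 217. Neither passed.

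Eif3f, Eif3h and Eif3k were among the most abundant subunit genes and differed least. Eif3f had 161 and 144 FPKM in controls and 128 and 180 in 5-FU recipients. The control values lay between the 5-FU values, and the log2 fold change of 0.00 turned negative under quantile scaling (−0.16), TPM scaling (−0.08), without control 2 (−0.08) and without 5-FU 2 (−0.25). Eif3h had 229 and 224 against 222 and 309 FPKM, overlapping, and its difference of 0.21 became 0.45 without 5-FU 1 and −0.03 without 5-FU 2. Eif3k had 238 and 244 against 258 and 375 FPKM (log2 fold change 0.36, limma adjusted p = 0.33), and its difference was 0.64 without 5-FU 1 and 0.09 without 5-FU 2. For these 3 genes and for Eif3e, Eif3j and Eif3m, 5-FU 2 stood well above 5-FU 1. Eif3j encodes a loosely bound subunit and had 30.7 and 27.4 against 35.7 and 65.2 FPKM. It shares 51.0% of its 75-base stretches with other genes, mainly its copy Eif3j2, so its level is uncertain. The subunit genes were unequal, as the values of a pair picked out afterwards show: the Eif3b to Eif3h ratio of FPKM was 0.266 and 0.303 in controls and 0.804 and 0.568 in 5-FU recipients.

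**Figure D3:**
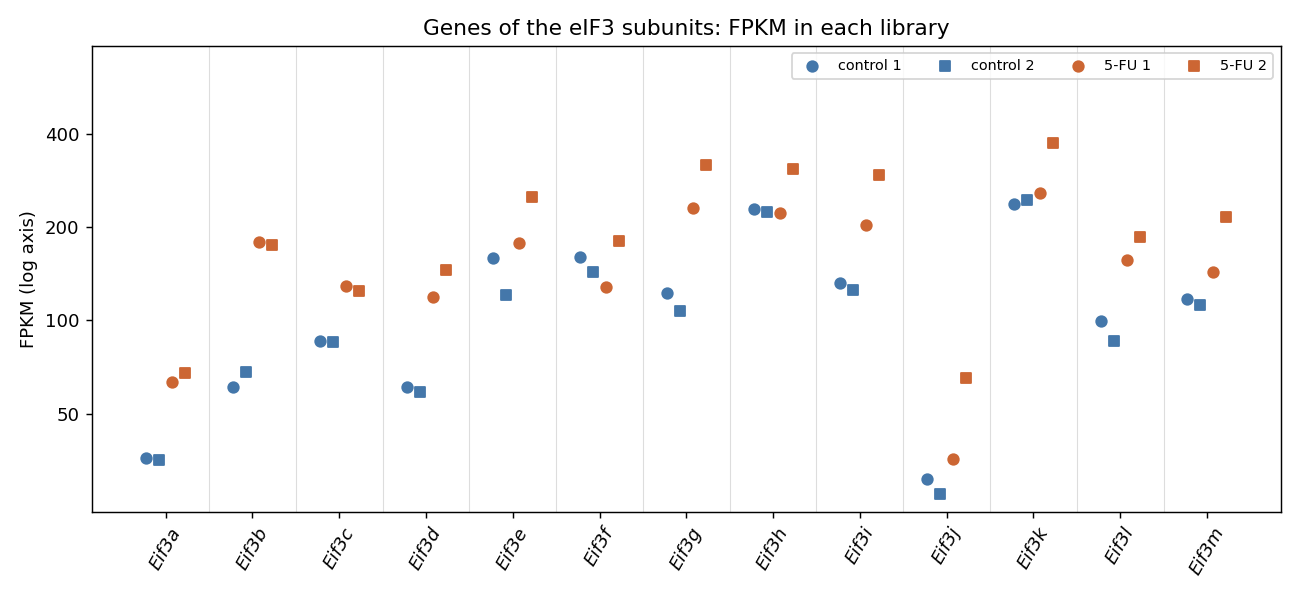
FPKM (vertical log axis) of the 13 eIF3 subunit genes in each library, controls in blue and 5-FU recipients in orange, circles for recipient 1 and squares for recipient 2. The 5-FU points of Eif3b, near 177, lie far above its controls near 64.4, whereas those of Eif3f lie on either side of its controls.

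Among the cap complex genes 4 of 11 tested members rose, beside 8.23% of all tested genes, and 7 did not pass. The median log2 fold change of the 11 was 0.67, and members of one family had values on both sides of 0. Eif4e, the cap-binding subunit at chr3:138526191-138559696, had 49.8 and 48.2 FPKM in controls and 93.8 and 141 in 5-FU recipients. Its log2 fold change was 1.22 (SE 0.23, limma adjusted p = 0.021), and 0.92 without 5-FU 2. Eif4e2, whose protein (4EHP) is known to repress cap-dependent translation, had 14.5 and 29.5 FPKM in controls and 35.8 and 30.4 in 5-FU recipients. Its controls were 2 far-apart values, and without control 1 the difference fell from 0.65 to 0.16. Eif4e3, another cap-binding relative, was on the other side, with 25.8 and 25.4 against 22.3 and 15.6 FPKM (log2 fold change −0.44, limma adjusted p = 0.25), which was −0.68 without 5-FU 1 (limma adjusted p = 0.031) and −0.19 without 5-FU 2 (0.57). The Eif4e to Eif4e3 ratio of FPKM was 1.93 and 1.895 in controls and 4.21 and 9.07 in 5-FU recipients.

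The helicase genes were unequal too. Eif4a1, at chr11:69666936-69672423 and the main eIF4A of dividing cells, had 184 and 186 FPKM in controls and 341 and 493 after 5-FU (log2 fold change 1.14, SE 0.24, limma adjusted p = 0.024). Eif4a2, its paralog, had 93.8 and 85.8 against 98.2 and 93.6 FPKM. The Eif4a2 groups overlapped, and its difference of 0.09 turned to −0.05 with quantile scaling. The Eif4a1 to Eif4a2 ratio was 1.97 and 2.17 in controls and 3.475 and 5.27 in 5-FU recipients. Of the 75-base stretches of Eif4a1 62.9% also occur in other annotated transcripts, mostly a pseudogene (Eif4a-ps4), so its level is uncertain. For Eif4a2 that share is 7.96%, and its exons share 194 bases with Rfc4 on the opposite strand. Rfc4 had 27.2 and 29.1 FPKM in control 1 and 2 and 68.8 and 112 in 5-FU 1 and 2. Eif4a3, a relative that sits in the exon junction complex, went from 96.3 and 75.1 to 137 and 161 FPKM and rose by 0.79 (SE 0.21), with a limma adjusted p of 0.048 that sits close to the threshold. It shares 12.4% of its 75-base stretches with other annotated transcripts.

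Of the helicase cofactors Eif4h had a closely matched control pair, at 70.7 and 70.1 FPKM, against 145 and 155 after 5-FU (log2 fold change 1.08, SE 0.18, limma adjusted p = 0.016). Eif4b, which also stimulates eIF4A and is a substrate of S6 kinase, had 48.7 and 41.8 against 71.3 and 69.6 FPKM (0.63, limma adjusted p = 0.066). Both pairs of groups were separate, and only Eif4h passed.

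None of the scaffold genes passed, and they lay on both sides of 0. Eif4g1, the main scaffold, had 8.58 and 13.6 FPKM in controls and 26.4 and 17.1 after 5-FU (log2 fold change 0.91, SE 0.31, limma adjusted p = 0.091), and left-out libraries moved it: it was 1.21 without 5-FU 2 (limma adjusted p = 0.022), 0.61 without 5-FU 1 (0.15), 0.61 without control 1 (0.48) and 1.22 without control 2 (0.17). Eif4g2, whose protein (DAP5) lacks the eIF4E-binding part, had 104 and 113 against 165 and 182 FPKM (0.67, limma adjusted p = 0.055). Eif4g3 had 30.8 and 39.0 FPKM in controls and 20.4 and 22.7 in 5-FU recipients, both below both controls (−0.66, SE 0.22, limma adjusted p = 0.083), with −0.74 without 5-FU 2 (limma adjusted p = 0.044) and −0.59 without 5-FU 1 (0.058). In controls Eif4g3 was more abundant per length than Eif4g1, with an Eif4g1 to Eif4g3 ratio of 0.278 and 0.350. In 5-FU recipients the ratio was 1.29 and 0.752, above both controls, with Eif4g1 the higher of the pair in 5-FU 1 only. The Eif4g2 to Eif4g3 ratio was 3.365 and 2.91 against 8.07 and 8.01.

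**Figure D4:**
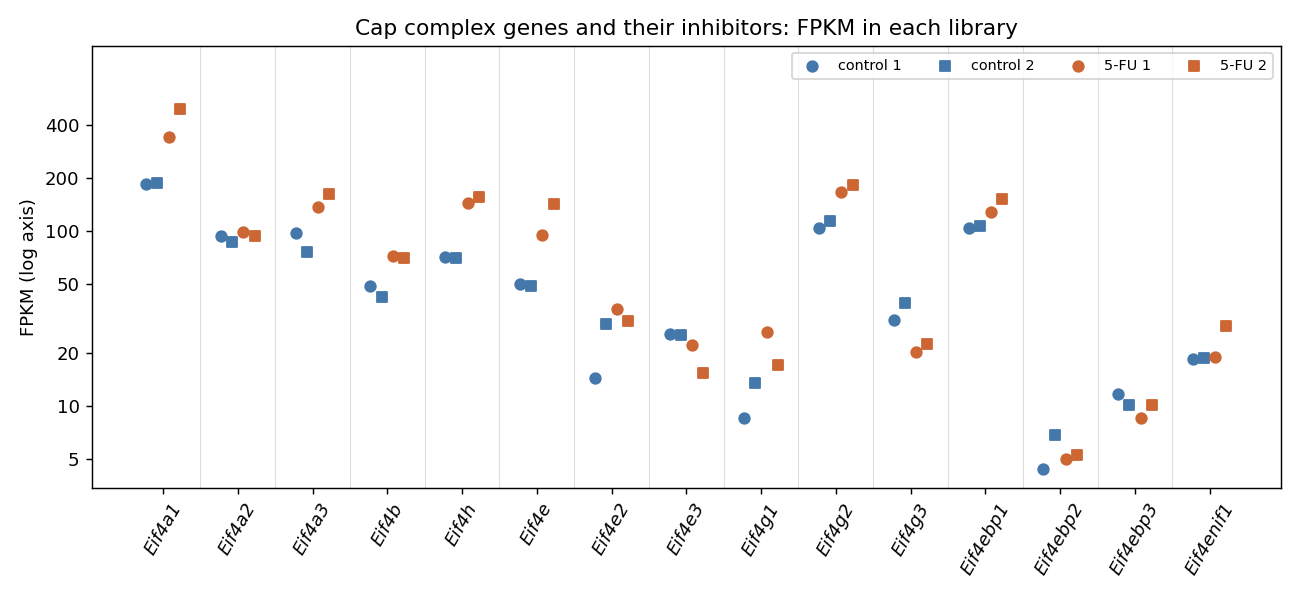
FPKM (vertical log axis) of the cap complex genes and their inhibitors in each library, with colours and symbols by group and recipient. Eif4a1, Eif4e and Eif4h are separated between groups, Eif4a2 and Eif4ebp2 are mixed, and Eif4e3 and Eif4g3 have both 5-FU points below the controls.

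The inhibitors of the cap-binding protein did not pass. Eif4ebp1, the main 4E-BP gene, had 104 and 106 FPKM in controls and 128 and 151 after 5-FU (log2 fold change 0.41, limma adjusted p = 0.19). Its groups were separate, but the difference was smaller than that of Eif4e, and the Eif4e to Eif4ebp1 ratio was 0.481 and 0.456 in controls and 0.735 and 0.935 in 5-FU recipients. None of the ratios of paired genes given here was tested. Eif4ebp2 had 4.37 and 6.82 against 5.00 and 5.30 FPKM, overlapping, with a difference of −0.08 that was 0.19 without control 2. Eif4ebp3 had 11.7 and 10.2 against 8.59 and 10.1 FPKM (−0.21), and 64.2% of its 75-base stretches occur in a joined annotated transcript. Eif4enif1, which carries eIF4E into the nucleus, had 18.7 and 18.8 against 19.1 and 28.5 FPKM.

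Eif5a was the most abundant member in 5-FU libraries, and its log2 fold change and that of Eif3b (1.45) were the highest of the 52 and within their errors of each other. Without 5-FU 2 or without control 2 Eif3b had the higher value (1.46 against 1.16, and 1.53 against 1.42), and without 5-FU 2 Eif1ad and Eif4g1 were above Eif5a too. Its protein eases peptide bond formation at difficult residues and carries hypusine, a modified lysine made from the polyamine spermidine. It lies at chr11:69916712-69921958 and had 683 and 647 FPKM in controls and 1492 and 2250.5 in 5-FU recipients. The log2 fold change was 1.46 (SE 0.29, limma adjusted p = 0.022), 1.16 without 5-FU 2 and 1.76 without 5-FU 1. Eif5a2, its paralog, stayed low, with 2.48 and 4.69 FPKM in controls and 2.09 and 2.19 after 5-FU, both below both controls, and did not pass. Dhps and Dohh, the enzymes that make hypusine, had log2 fold changes of 0.43 and 0.79 and did not pass. Eif6, which keeps the ribosomal subunits apart and acts in maturation of the large subunit, went from 71.7 and 77.7 to 124 and 135 FPKM (0.78, SE 0.18, limma adjusted p = 0.035). An annotated antisense gene shares 138 exon bases with Eif6.

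The Argonaute genes under older symbols were low and none passed. Eif2c4 (Ago4) had 3.86 and 4.54 FPKM in controls and 1.13 and 1.67 after 5-FU (log2 fold change −1.12, SE 0.31, limma adjusted p = 0.055). It passed as lower without 5-FU 2 (limma adjusted p = 0.041), without a variance trend and with a pseudocount of 5, and was −0.96 without 5-FU 1 (limma adjusted p = 0.064). Eif2c3 (Ago3) had 3.24 and 4.77 against 2.35 and 1.05 FPKM (−0.92), also below both controls, with −1.27 without 5-FU 1 (limma adjusted p = 0.027) and −0.56 without 5-FU 2. Eif2c1 (Ago1) had 3.72 and 2.47 against 2.72 and 2.92 FPKM, and Eif2c2 (Ago2) 2.58 and 1.505 against 2.40 and 2.76. Both overlapped and their sign changed with a left-out control.

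Genes of translation outside initiation were read from a list of 42, all tested: 8 rose, 2 fell and 32 did not pass, with a median log2 fold change of 0.22. Over all tested genes 8.23% rose and 4.67% fell. Of the 8, 3 came from the 6 genes listed under elongation (Eef1d, Eef1g and Eef1e1) and 3 from the 6 listed under termination and recycling (Etf1, Gspt1 and Abce1). Pabpc4, a poly(A)-binding protein, had the smallest p of the 8, with 3.19 and 3.48 FPKM in controls and 11.6 and 14.0 after 5-FU (log2 fold change 1.67, limma adjusted p = 0.015). Eef1e1, listed there for its symbol although it encodes a scaffold protein of the tRNA synthetase complex, rose by 1.27, Eef1d, an exchange factor for eEF1A, by 1.03, and Abce1, which splits ribosomes after termination, by 0.89. The elongation factor genes Eef1a1 and Eef2, with means of 3779.8 and 313 FPKM in controls, had differences of 0.12 and 0.17 that did not pass; this pair was singled out with its values known.

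The 2 members of that list that fell were Ppp1r15a and Pdcd4. Ppp1r15a encodes GADD34, the stress-induced partner of the phosphatase that removes phosphate from eIF2α. It had 42.9 and 43.5 FPKM in controls and 12.4 and 12.2 after 5-FU (log2 fold change −1.73, SE 0.20, limma adjusted p = 0.0079). Pdcd4, which inhibits the eIF4A helicase, had 29.1 and 27.7 against 13.2 and 12.8 FPKM (−1.07, SE 0.21, limma adjusted p = 0.022). Both had replicates within a few percent of each other in either group. Of the 4 eIF2α kinase genes none passed. Of the 5 genes listed under the stress response Ppp1r15a alone did, and of the 8 mTOR branch genes Pdcd4 alone. Without control 1 or control 2 there were 0 calls in the 42 genes, where 0.765% or 0.8% of all tested genes were called higher and 0.331% or 0.374% lower.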

How the data were processed

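The authors deposited 1 FPKM table per library (fragments scaled to transcript length and library size). The submitters' processing notes name the build mm10 and the tools Cuffnorm 2.2.1, TopHat2 2.0.13, SAMtools 0.1.19 and Bowtie2 2.2.3. The sources used here do not give the annotation, strand setting or library scaling. Libraries were SMART-Seq cDNA read as 75 bp single ends, per the labels' protocols. The headers of the 5-FU tables name another day than their file names, and groups come from the labels.

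FPKM summed to 678222 to 762107 per library. The sources used here give no depth. In genes under 0.4 FPKM the worth of 1 read, relative to 5-FU 2, was 1.31 and 1.26 in control 1 and 2 and 1.07 in 5-FU 1, so control values rest on fewer reads. Whole reads were not recovered, so no count model was used.

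A gene was tested if 2 or more of the 4 libraries had 1 FPKM or more, on log2(FPKM + 1) with limma 3.58.1 in R 4.3.3 (eBayes, trend on; two-sided; threshold 0.05). There were 2 residual degrees of freedom and the prior added 5.62. This scale understates the fold change of low genes. By the labels the replicates are biological and each recipient was sorted singly, so a library stands for 1 recipient. The fit was also run on simulated data whose noise was normal and followed a smooth trend with the mean. Such data lack the gene-specific spread of the real libraries, so that run does not bear on the calls. Members and lists were chosen with earlier results of these data known. All members could be named; full statistics went to those that rose most, and values to their paralogs and complexes. Shared 75-base stretches were counted in GENCODE M21 transcripts, and 11 members shared over 10%. The alternatives were other pseudocounts, filters, scalings and variance models, a replicate block, and each library left out.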

Additional observations from a re-analysis of the deposited data

How the results depend on the processing

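The count of initiation factor genes called higher was 0 with no filter on low values (27 of 53 had an unadjusted p under 0.05, beside 14.2% of all genes; 0.15% of all genes were called higher, and the prior degrees of freedom went from 5.62 to 0.695), 7 without a variance trend (4.77% of all tested genes) and 10 with a replicate block (7.44%). It was 13 to 19 under the other scalings, filters, pseudocounts and robust eBayes (6.41% to 11.9%). The block rests on replicate numbers that pair nothing the labels name (the deviations of the replicate 1 libraries correlated at −0.159 across genes). Over the left-out libraries the count ran from 0 to 31 and the lower count from 0 to 2, while 0.765% to 18.5% of all tested genes were called higher and 0.331% to 16.3% lower; the lower count was 1 without a trend and 1 with a pseudocount of 5. Without control 1 or 2, 18 or 16 of 52 members had an unadjusted p under 0.05, beside 17.3% or 16.5% of all tested genes. In these fits the lone library is assumed to vary like the other group. The median log2 fold change was 0.49 with quantile scaling and 0.52 to 0.64 over the left-out libraries. For the other translation genes the higher count was 0 with no filter, 2 without a trend and 0 to 13 over the left-out libraries, and the lower count 1 with no filter and 0 to 5. No member that rose changed direction in any of the 14 alternatives, and none of the 17 passed in all of them. Members near 0 that changed sign with quantile scaling were Eif1 (−0.012), Eif2c1 (0.033), Eif3f (−0.16), Eif4a2 (−0.046) and Eif5 (−0.17), and with TPM scaling Eif3f (−0.081) and Eif5 (−0.056). Over the left-out libraries Eif2c1 ran from −0.31 to 0.14, Eif2c2 from −0.0012 to 0.51, Eif3f from −0.25 to 0.25, Eif3h from −0.028 to 0.45, Eif4ebp2 from −0.35 to 0.19 and Eif5 from −0.039 to 0.090. Beyond the filter, the cause of these changes was not tested. Depth could not be given, so no counting error stands beside single values.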
